A study of Mus musculus with 9 samples.

Results

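The human APE1 line and the mouse Ape1 line are mouse embryonic fibroblasts (MEFs, connective tissue cells of the mouse embryo) that were compared here directly with each other. The 6 arrays titled human APE1 1 to 3 and mouse Ape1 1 to 3 were taken, of 9 arrays in all. Human APE1 and mouse Ape1 are the apurinic/apyrimidinic endonuclease of each species, which cuts the DNA strand where a base has been lost, a step of base excision repair. The same protein is also known as Ref-1, because it reduces transcription factors such as AP-1, NF-kB, p53 and HIF-1 and so changes how they bind DNA. The series asked how groups of genes, with glycolysis and the cell cycle as examples, are regulated by each of the proteins, whose amino acid sequences are nearly the same.

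In the first line (MEF/hAPE1 in a note in the deposited table) human APE1 was supplied, in the second (MEF/mApe1) mouse Ape1, and a further line (MEF/vector, titled vector control) is shown beside them. All 3 lines share a background isogenic to C56BL/6, spelled as in the labels, are male, and have the genotype mApe1-/- with a human APE1 transgene. By its label the mouse Ape1 line may thus carry human APE1 as well. The same note puts the level of the protein in the vector line to that in either other line at about 1:500. Dishes were harvested while growing, semi-confluent, in medium with 10% serum, and no treatment differed between the groups. Each group is 1 cell line grown in 3 dishes, so the p-values measure the spread between dishes, and the effect of the protein and that of the line cannot be told apart. The gene for Ape1 itself is not analysed here, so the labels were not checked against it.

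Values are log2 RMA expression values, on which a difference of 1 is a 2-fold change, and differences are human APE1 minus mouse Ape1. Across transcript clusters, r between dishes of one line was 0.9901 to 0.9934 over 6 pairs, and r between a human APE1 and a mouse Ape1 dish was 0.9819 to 0.9868 over 9 pairs. The median of all 9 arrays was 5.70 and the 25th percentile 4.32, below which differences are compressed and their sizes uncertain. A typical difference had an SE of 0.106. The cells matched their label: Vim, the intermediate filament of fibroblasts, stood at 13.04 in the human APE1 line and 13.19 in the mouse Ape1 line, and 14 of 17 fibroblast markers were brighter than the array median. Their mean level was 8.03 to 8.11 on the human APE1 arrays and 8.09 to 8.15 on the mouse Ape1 arrays. Markers of epithelial cells averaged 5.50 to 5.55 in the human APE1 line and 5.47 to 5.52 in the mouse Ape1 line, those of endothelial cells 4.85 to 4.94 and 4.96 to 5.02, and those of macrophages 5.29 to 5.32 and 5.17 to 5.27. Of the macrophage markers, Cd68 stood highest, at 7.75 in the human APE1 line and 7.71 in the mouse Ape1 line. Of the 10, 8 and 8 markers in these lists, the endothelial cadherin Cdh5 (−0.40) was the one that passed the test.

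The lines differed widely. Of 24647 genes, each represented by its brightest transcript cluster, 1767 were higher in the human APE1 line (7.17% of those tested) and 2314 were lower (9.39%), at an adjusted p under 0.05 in limma. By at least 2-fold, 88 genes were higher (0.357%) and 285 lower (1.16%). Genes higher in the human APE1 line made up 43.3% of the calls, but 53.5% after quantile normalization was run again (2279 higher, 1978 lower), so the balance of small changes depended on the scaling. Over all genes the median difference was 0.03, and the 3 values of one line lay wholly above the 3 of the other in 34.9% of genes. Since dim genes rarely pass, the gene lists below are read against the 13463 genes brighter than the array median, of which 12.2% were higher and 16.0% lower, with a median difference of 0.02. The share of a list is taken over all its measured members, dim ones included. In a list with many dim members it is therefore low for that comparison.

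**Figure D1:**
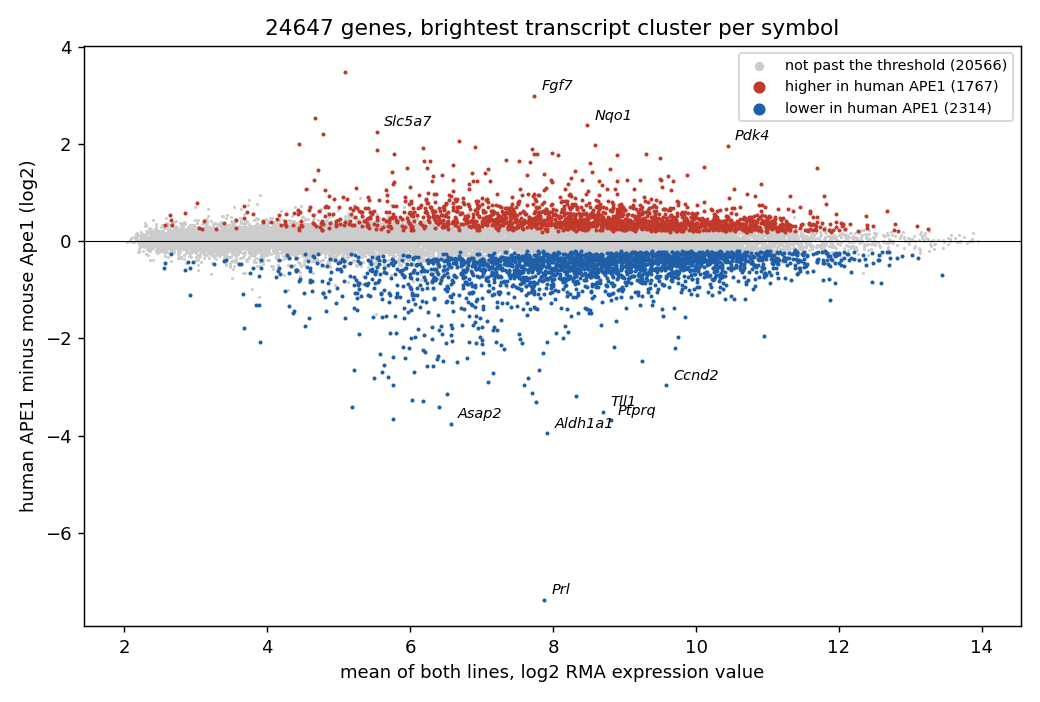
Each point is 1 of 24647 genes, with the mean log2 RMA value of both lines across and the difference, human APE1 minus mouse Ape1, up. Red genes were higher (1767) and blue genes lower (2314) in the human APE1 line, and blue genes reach farther from 0, with Prl at −7.38. The highest unlabelled point is Vmn1r188, a vomeronasal receptor gene (3.47), a class left out of the named genes.

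The genes with the largest positive differences were Fgf7 and Nqo1. Fgf7, keratinocyte growth factor, which fibroblasts make for epithelial cells, read 9.25, 9.24 and 9.22 on the human APE1 arrays and 6.20, 6.39 and 6.14 on the mouse Ape1 arrays. The groups lay far apart, and vector control (9.41, 9.42 and 9.32) stood beside the human APE1 line. The difference of 2.99 is 7.95-fold (SE 0.08, adjusted p = 1.05e-06 in limma), against a ratio of 6.80 in the authors' deposited table. Nqo1, a quinone reductase and the textbook target of the antioxidant factor NRF2, read 9.60, 9.60 and 9.79 in the human APE1 line and 7.30, 7.47 and 7.07 in the mouse Ape1 line. It too was low in the mouse Ape1 line alone, with vector control at 9.78, 9.99 and 9.71, and was 5.22-fold higher in the human APE1 line (SE of the log2 difference 0.12, adjusted p = 1.99e-05).

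Pdk4, a kinase that switches off pyruvate dehydrogenase, read 11.32, 11.42 and 11.54 in the human APE1 line, 9.47, 9.55 and 9.38 in the mouse Ape1 line and 10.37, 10.40 and 10.35 in vector control. Here the control lay between the lines, which differed 3.89-fold (log2 difference 1.96, SE 0.07, adjusted p = 5.37e-06). Ptn, the secreted heparin-binding factor pleiotrophin, was high in the human APE1 line alone: 10.49, 10.01 and 10.09 there, 8.39, 8.36 and 8.48 in the mouse Ape1 line and 8.46, 8.36 and 8.22 in vector control. The choline transporter Slc5a7 (2.25) was likewise higher against both other lines. Ereg, an EGF receptor ligand (1.78), Reep6, a membrane-shaping protein of the endoplasmic reticulum (1.98), Enpp3, an ectonucleotide phosphodiesterase (1.91), and Pcdh19, a protocadherin (1.79), resembled Fgf7 in that the mouse Ape1 line was the lowest of the 3. Completing the 15 largest were the actin-binding protein Ablim1 (2.05), the ubiquitin ligase Pdzrn3 (1.94), Ralgps2, an exchange factor for Ral (1.90), Plekhg1, a guanine nucleotide exchange factor (1.87), Ezr, the membrane-cytoskeleton linker ezrin (1.82), and Rex2 (2.21). Rex2 has near-identical relatives and read below the 25th percentile in the mouse Ape1 line, so its size is uncertain.

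**Figure D2:**
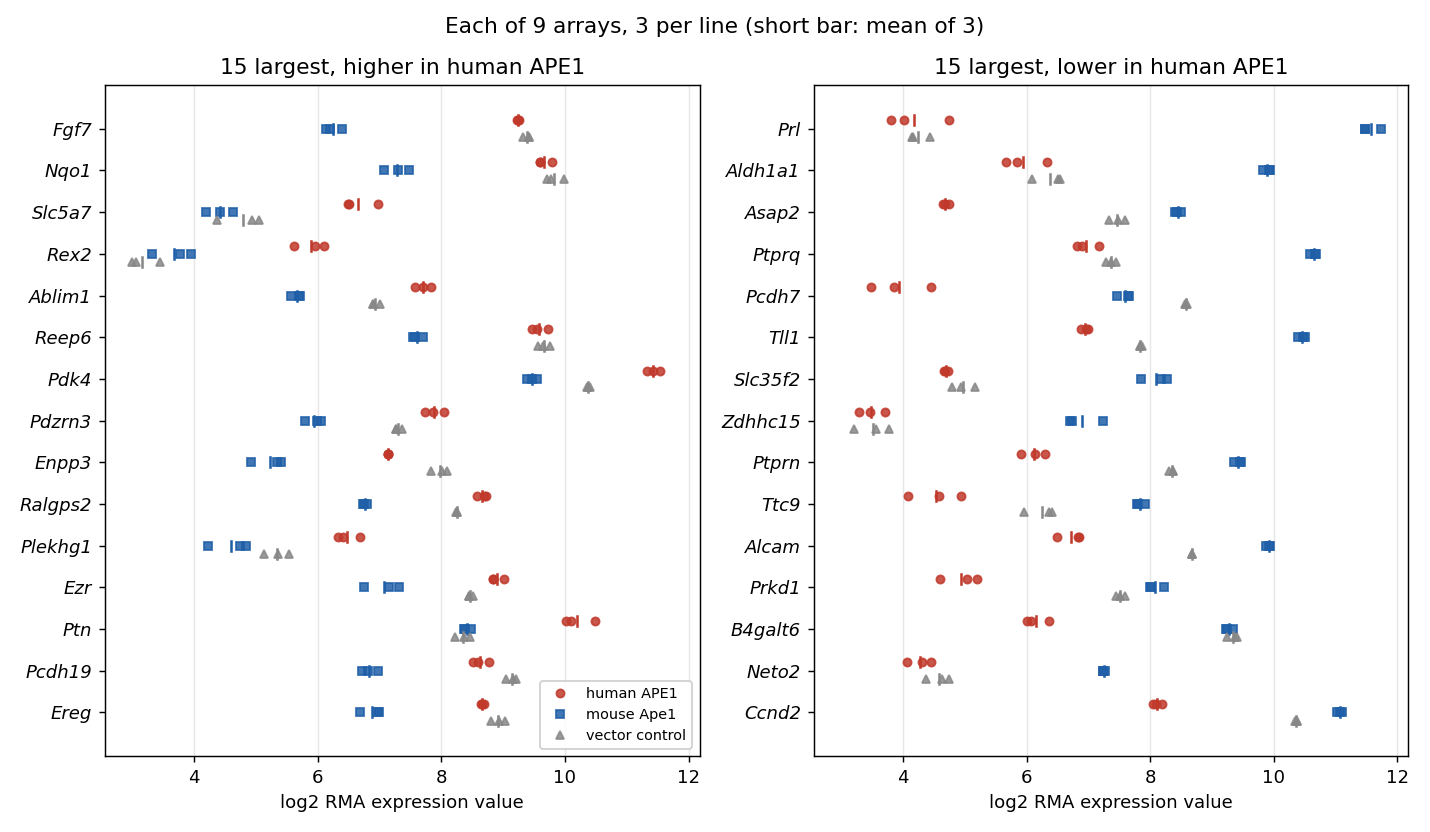
Every array's log2 RMA value for the 15 genes with the largest positive and the 15 with the largest negative difference, human APE1 (red circles), mouse Ape1 (blue squares) and vector control (grey triangles), with short bars at the means of 3 arrays. Circles and squares do not overlap in any gene, which the choice of genes required. The triangles lie beside the circles (Fgf7, Prl), beside the squares (Ptn, B4galt6), between both (Pdk4, Ccnd2) or above both (Pcdh7, Enpp3).

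The largest difference of all was in Prl, the hormone prolactin, made mainly by the pituitary. Prl read 3.80, 4.74 and 4.02 on the human APE1 arrays and 11.48, 11.74 and 11.48 on the mouse Ape1 arrays, with vector control at 4.44, 4.14 and 4.16. Of the 3 human APE1 values, 2 lie below the 25th percentile, so the log2 difference of −7.38 (SE 0.22, adjusted p = 2e-06) has a direction but no firm fold. For Prl, the authors' deposited table lists human APE1 over mouse Ape1 at 0.00671. Of 17 measured genes of the prolactin family, most of them hormones of the placenta, 11 read below the 25th percentile on all 6 arrays. Prl2c2, proliferin, a fibroblast growth-associated member with near-identical copies, was higher in the human APE1 line by 0.65, at 10.34, 10.60 and 10.65 against 9.76, 10.14 and 9.75 in the mouse Ape1 line. Prl3d1, a placental lactogen, was lower (−1.08, adjusted p = 0.0195), a call lost without human APE1 replicate 3 or mouse Ape1 replicate 1 or 3.

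Aldh1a1, a retinaldehyde dehydrogenase that makes retinoic acid, read 6.33, 5.67 and 5.85 in the human APE1 line and 9.92, 9.82 and 9.94 in the mouse Ape1 line, 15.4-fold lower (log2 difference −3.95, SE 0.18, adjusted p = 1.36e-05). As for Prl, vector control (6.09, 6.51 and 6.54) stood with the human APE1 line, so the mouse Ape1 line was the one apart. Asap2, a GTPase-activating protein for Arf, showed another order: 4.64, 4.68 and 4.74 in the human APE1 line, 8.43, 8.50 and 8.40 in the mouse Ape1 line and 7.33, 7.48 and 7.60 in vector control. It was 13.5-fold lower (log2 difference −3.76, SE 0.08, adjusted p = 5.22e-07), with the human APE1 line below both others. Cell surface and extracellular proteins filled much of the rest: the receptor phosphatases Ptprq (−3.69) and Ptprn (−3.31), the protocadherin Pcdh7 (−3.65), the adhesion molecule Alcam (−3.19), the transporter-like Slc35f2 (−3.41), the glutamate receptor auxiliary subunit Neto2 (−2.97) and Tll1, a protease that matures procollagen (−3.51). Inside the cell, the palmitoyltransferase Zdhhc15 (−3.41), Ttc9 (−3.30), protein kinase D1 (Prkd1, −3.14) and the glycolipid enzyme B4galt6 (−3.12) were lower. For Pcdh7, Zdhhc15 and Neto2 the human APE1 mean lay below the 25th percentile, so their sizes are uncertain. All 30 of these genes stayed past the threshold with the same sign in every alternative in which they could be tested.

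Ccnd2, cyclin D2, which with CDK4 or CDK6 starts the passage through G1, read 8.04, 8.09 and 8.19 in the human APE1 line, 11.08, 11.11 and 11.02 in the mouse Ape1 line and 10.38, 10.38 and 10.34 in vector control. It was 7.81-fold lower in the human APE1 line than in the mouse Ape1 line (log2 difference −2.96, SE 0.06, adjusted p = 5.22e-07). Ccnd1, cyclin D1, was also lower, at 9.89, 9.99 and 10.03 against 10.68, 10.69 and 10.66 in the mouse Ape1 line (log2 difference −0.70, adjusted p = 0.000149), while vector control at 9.94, 9.95 and 9.92 stood beside the human APE1 line. The 2 D cyclins thus moved the same way between these lines and stood differently against the control. Of 33 G1 and S phase genes, 6 were lower (18.2%) and 3 higher (9.09%), close to the 16.0% and 12.2% of all brighter genes. The transcription factor E2f1 (−0.51) and the kinase Cdk6 (−0.47) were among those lower, and higher were the retinoblastoma relative Rbl1 (0.44), Cdk2 (0.30, lost without any 1 of the 6 arrays) and Cdk4 (0.26). Without human APE1 replicate 1 or mouse Ape1 replicate 3, 1 gene of the list was higher, and after quantile normalization was run again 5 were. The median of the list was −0.05.

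Genes of the G2 and M phases leaned to the human APE1 line. Of 34 measured, 16 were higher in the human APE1 line (47.1%, against 12.2% of the brighter genes) and 1 was lower, with a median of 0.20, and 13 to 17 were higher when 1 array was left out. Cenpf, a kinetochore protein that accumulates towards mitosis, read 10.54, 10.54 and 10.45 in the human APE1 line and 9.76, 9.66 and 9.68 in the mouse Ape1 line (log2 difference 0.81, SE 0.06, adjusted p = 9.66e-05). Ccnb1, cyclin B1, which activates the mitotic kinase, read 11.31, 11.22 and 11.37 against 10.63, 10.56 and 10.46 (0.75, SE 0.07, adjusted p = 0.000415). The spindle motor Kif11 (0.65), the spindle protein Nusap1 (0.64) and the mitotic kinase Cdk1 itself (0.46) were higher too, and the checkpoint kinase Ttk was lower (−0.36, a call lost without human APE1 replicate 1 or mouse Ape1 replicate 1). The median member lay 0.08 to 0.12 above the mean of the 6 arrays on the human APE1 arrays and 0.09 to 0.14 below it on the mouse Ape1 arrays, so no array of one line reached the other. In such bulk samples, fewer cells in a phase and less RNA per cell cannot be told apart. Of 8 inhibitors of cyclin-dependent kinases, Cdkn2b, p15 (0.52), was higher and Cdkn2d, p19 (−0.39), lower, the second not past the threshold without human APE1 replicate 2. Cdkn1a, p21, differed by 0.37 (adjusted p = 0.0488), a call lost when any 1 of 7 arrays was left out. Cdkn2a differed by 0.03 (adjusted p = 0.791).

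The promoters of 2 genes of this list are shown because their starts carry the cell cycle genes homology region (CHR, TTTGAA), a motif known from promoters of G2 and M phase genes. Each runs over the 250 bases before the annotated start, from RefSeq (GRCm38.p6), 5′ to 3′ along the gene, with the motif in capitals as it reads on the printed strand.
Cdk1, chr10:69352913-69353162, minus strand: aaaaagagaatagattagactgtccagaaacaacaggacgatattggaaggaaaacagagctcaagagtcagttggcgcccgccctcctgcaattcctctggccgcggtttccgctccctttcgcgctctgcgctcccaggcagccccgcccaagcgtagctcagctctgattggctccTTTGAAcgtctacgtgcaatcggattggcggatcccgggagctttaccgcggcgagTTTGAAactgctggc
Kif11, chr19:37376132-37376381, plus strand: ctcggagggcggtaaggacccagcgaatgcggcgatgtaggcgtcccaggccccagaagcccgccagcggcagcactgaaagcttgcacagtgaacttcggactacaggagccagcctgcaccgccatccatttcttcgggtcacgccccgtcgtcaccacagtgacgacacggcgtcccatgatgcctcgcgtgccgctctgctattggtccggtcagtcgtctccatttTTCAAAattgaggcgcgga
The Cdk1 promoter holds the motif 71 and 15 bases before the start, and that of Kif11 holds it 19 bases before, on the other strand. Searched on both strands, the motif stood in 12 of the 28 list members with a promoter entry (42.9%) and in 18.3% of 27025 genes. Of the 16 such members that passed the test, 7 held it. These shares describe the list and not the difference between the lines. A match is a description of letters and not evidence of binding, and the genes shown were picked with their values known.

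**Figure D3:**
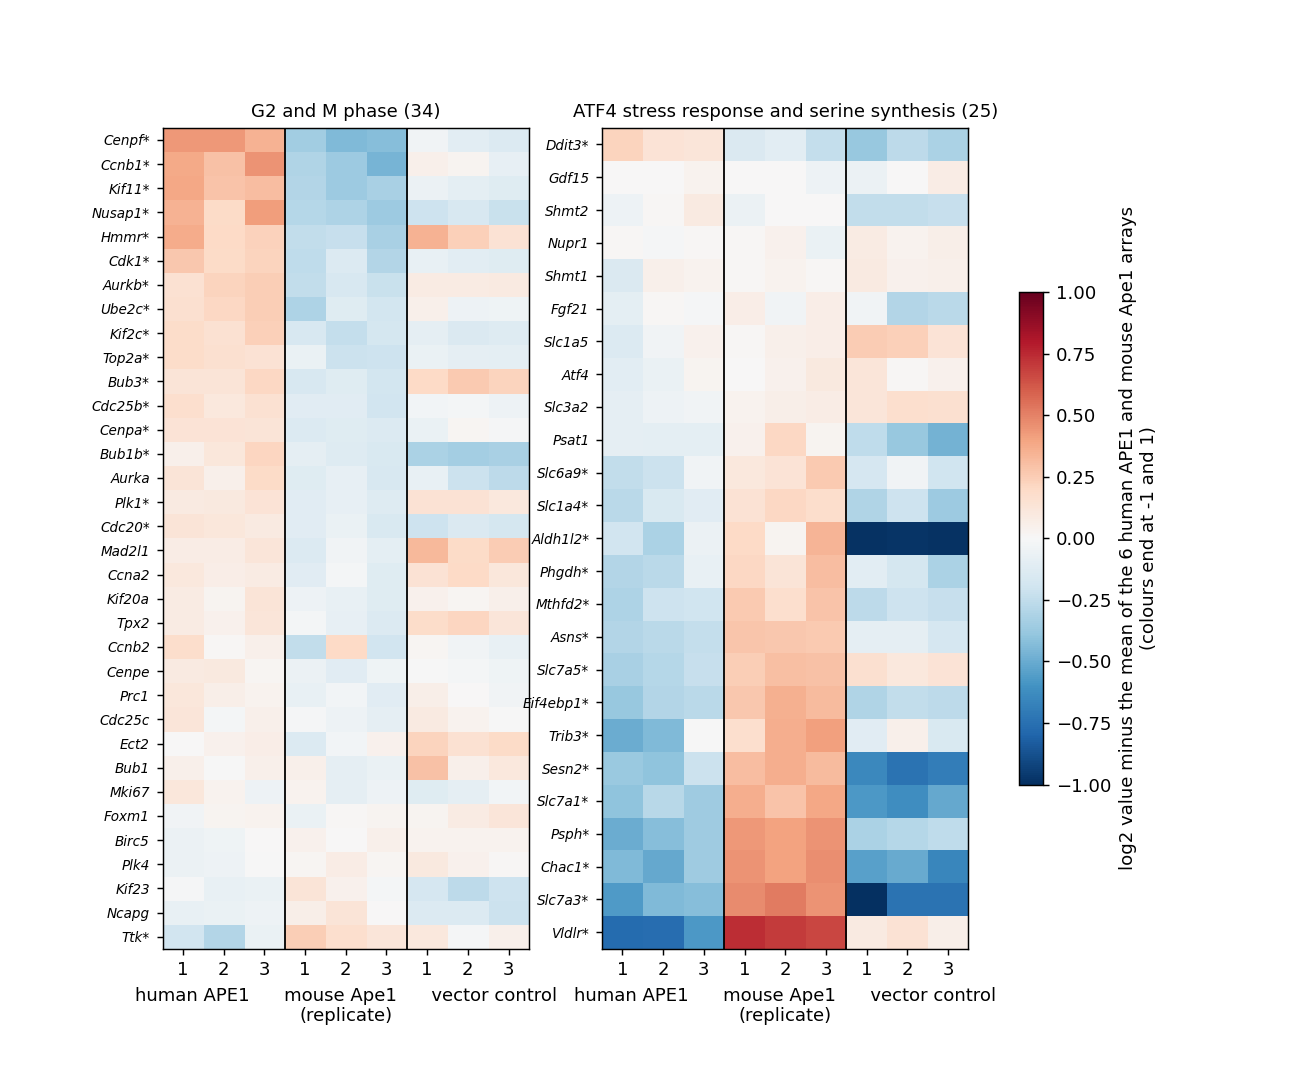
Each row is a gene of the G2 and M phase list (34, left) or of the ATF4 stress response and serine synthesis list (25, right), and each column 1 array; colour gives the log2 value minus the gene's mean over the 6 human APE1 and mouse Ape1 arrays, cut at −1 and 1. Stars mark genes past an adjusted p of 0.05. Most starred rows are red in the human APE1 columns and blue in the mouse Ape1 columns in the G2 and M list (16 of 17), and the reverse in the ATF4 list (15 of 16).

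The list that leaned most to the mouse Ape1 line was that of ATF4, the transcription factor that raises amino acid supply and serine synthesis when translation is limited through the kinases of eIF2. Of 25 measured members, 15 were lower in the human APE1 line (60.0%, against 16.0% of the brighter genes) and 1 was higher, with a median of −0.38. Between 11 and 15 were lower when any 1 array was left out. Chac1, which breaks down glutathione, read 7.46, 7.39 and 7.55 in the human APE1 line and 8.36, 8.31 and 8.37 in the mouse Ape1 line (log2 difference −0.88, SE 0.07, adjusted p = 0.000117). Psph, the last enzyme of serine synthesis, read 8.72, 8.79 and 8.86 against 9.65, 9.62 and 9.67 (−0.85, adjusted p = 6.71e-05). In both genes vector control lay with the human APE1 line, at 7.37, 7.41 and 7.26 for Chac1 and 8.90, 8.93 and 8.96 for Psph.

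The largest difference of the ATF4 list was in Vldlr, a lipoprotein receptor, at 6.26, 6.26 and 6.45 against 7.76, 7.72 and 7.69 in the mouse Ape1 line (−1.40, adjusted p = 1.91e-05). The cationic amino acid transporters Slc7a3 (−0.96) and Slc7a1 (−0.69), the leucine carrier Slc7a5 (−0.56), asparagine synthetase Asns (−0.54), the serine enzyme Phgdh (−0.43), the mitochondrial folate enzyme Mthfd2 (−0.47), the pseudokinase Trib3 (−0.63), the translation repressor Eif4ebp1 (−0.63) and the stress sensor Sesn2 (−0.66) were lower as well. Atf4 itself, whose protein is set mainly by translation, differed by −0.10 (adjusted p = 0.399). Ddit3, the stress factor CHOP, was the member that was higher (0.32, adjusted p = 0.0129, lost without mouse Ape1 replicate 3). The median member lay below the mean of the 6 arrays on every human APE1 array (−0.27, −0.22 and −0.08) and above it on every mouse Ape1 array (0.17, 0.17 and 0.26).

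The promoters of Chac1 and Asns are shown because they hold the composite element of C/EBP and ATF factors (CARE, TGATGNAA), through which ATF4 is known to act. The window, source and orientation are those given for Cdk1, and capitals mark the motif.
Chac1, chr2:119350992-119351241, plus strand: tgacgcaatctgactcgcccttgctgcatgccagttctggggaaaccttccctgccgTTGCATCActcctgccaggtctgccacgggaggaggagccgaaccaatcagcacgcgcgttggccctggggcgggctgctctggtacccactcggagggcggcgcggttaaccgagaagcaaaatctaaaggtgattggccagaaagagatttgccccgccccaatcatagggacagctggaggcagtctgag
Asns, chr6:7693210-7693459, minus strand: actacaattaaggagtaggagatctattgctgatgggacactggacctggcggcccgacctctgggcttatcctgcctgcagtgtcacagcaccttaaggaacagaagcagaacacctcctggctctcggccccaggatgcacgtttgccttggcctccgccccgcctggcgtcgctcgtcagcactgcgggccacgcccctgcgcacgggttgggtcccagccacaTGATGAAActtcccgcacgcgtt
In Chac1 the element stands 193 bases before the start, on the other strand, and in Asns it stands 23 bases before it. It was present in 5 of 20 list members with a promoter entry (25%) and in 3.91% of 27025 genes. Of the 12 such members that passed the test, 3 held it. These shares describe the list and not the difference between the lines.

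Neighbouring lists leaned to the mouse Ape1 line too. Of 26 amino acid and choline transporters, 12 were lower (46.2%, against 16.0% of the brighter genes) and 4 higher (15.4%, against 12.2%), with a median of −0.10. Of those lower, 5 were transporters already named with ATF4 or on that list. Slc6a15, a carrier of branched-chain amino acids, read 4.39, 4.69 and 4.17 in the human APE1 line and 6.78, 6.74 and 6.74 in the mouse Ape1 line (−2.33, adjusted p = 3.8e-05). The creatine transporter Slc6a8 was lower by 1.32, and the amino acid carrier Slc38a4 higher (0.76). Without human APE1 replicate 2 or mouse Ape1 replicate 1 or 2, 8 were lower. Of 24 chaperones and degradation proteins of the endoplasmic reticulum, 9 were lower (37.5%) and 1 higher (4.17%), with a median of −0.14. Herpud1, which helps to remove misfolded proteins, read 9.32, 9.30 and 9.50 against 10.33, 10.34 and 10.28 in the mouse Ape1 line (−0.94, adjusted p = 8.05e-05). Hyou1, an oxygen-regulated chaperone (−0.70), and Sdf2l1 (−0.56) were lower, and Dnajc3, an inhibitor of eIF2 kinases, was higher (0.38). Dnajc3 did not pass in the authors' deposited table.

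Genes of NF-kB, a factor that Ref-1 is known to reduce, leaned to the human APE1 line. Of 30 measured, 9 were higher (30.0%, against 12.2%) and 0 lower, with a median of 0.13. The single-array repeats gave 8 or 9 higher, and 1 lower without mouse Ape1 replicate 3. Ccl2, a chemokine for monocytes, read 8.44, 8.46 and 8.58 in the human APE1 line and 7.10, 6.67 and 6.84 in the mouse Ape1 line (log2 difference 1.62, 3.08-fold, adjusted p = 0.000163). Cxcl1, a chemokine for neutrophils, read 7.31, 7.36 and 7.46 against 5.63, 6.16 and 5.64 (1.57, adjusted p = 0.000374). Both were near their vector control values, at 8.95, 8.60 and 8.88 for Ccl2 and 7.41, 7.41 and 7.67 for Cxcl1. Nfkbia, the inhibitor that NF-kB itself induces, was instead highest in the human APE1 line, at 10.01, 10.24 and 10.29 against 9.12, 9.12 and 9.13 in the mouse Ape1 line and 9.62, 9.64 and 9.65 in vector control (1.05, adjusted p = 0.000111). The chemokine Cxcl12 (0.93), the adhesion molecule Vcam1 (0.62) and the subunits Rel (0.82), Nfkb2 (0.42), Rela (0.35) and Relb (0.33) made up the rest.

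Promoters of Cxcl1 and Nfkbia are shown with the NF-kB motif, GGG and TTTCC with any 2 bases between them, in capitals, as in the windows above.
Cxcl1, chr5:90890995-90891244, plus strand: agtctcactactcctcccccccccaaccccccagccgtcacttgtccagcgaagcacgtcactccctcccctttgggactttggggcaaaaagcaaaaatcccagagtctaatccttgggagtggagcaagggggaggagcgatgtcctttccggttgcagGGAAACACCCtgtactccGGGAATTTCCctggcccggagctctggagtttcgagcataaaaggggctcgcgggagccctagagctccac
Nfkbia, chr12:55492648-55492897, minus strand: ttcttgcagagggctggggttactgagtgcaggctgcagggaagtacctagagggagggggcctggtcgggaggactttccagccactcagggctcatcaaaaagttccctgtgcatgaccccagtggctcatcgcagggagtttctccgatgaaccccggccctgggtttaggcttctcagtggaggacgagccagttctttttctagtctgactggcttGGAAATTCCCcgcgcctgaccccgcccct
Cxcl1 holds matches 89 and 71 bases before its start, on opposite strands, and Nfkbia 1 match 29 bases before. Of 22 list members with a promoter entry, 9 (40.9%) held the motif, as did 1.65% of 27025 genes. Of the 6 such members that passed the test, 4 held it. These shares describe the list and not the difference between the lines.

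Genes of the other factors named for the redox role of Ref-1 were counted in the same way. The shares to set beside them are the 12.2% higher and 16.0% lower of the brighter genes. Of 24 p53 targets, 9 were higher (37.5%) and 2 lower (8.33%), with a median of 0.14, and 7 or 8 were higher when 1 array was left out. The death receptor Fas read 6.46, 6.42 and 6.46 in the human APE1 line and 5.23, 4.89 and 4.97 in the mouse Ape1 line (1.42, adjusted p = 0.000142), and vector control was above both at 7.91, 7.75 and 7.57. Sesn1 (0.67), a stress-induced inhibitor of mTORC1, the p53 partner Trp53inp1 (0.60) and the p53 ligase Mdm2 (0.43) were higher, and its relative Sesn2, also an ATF4 target, lower (−0.66). Trp53, p53 itself, was higher by 0.35 (adjusted p = 0.00755). Of 24 AP-1 and immediate early genes, 5 were higher (20.8%) and 1 lower (4.17%), with a median of 0.00. Fos read 6.62, 6.62 and 6.67 against 6.16, 6.13 and 6.23 (0.46, adjusted p = 0.00195). The others higher were Egr1 (0.60), Egr2 (0.51), Ier3 (0.48) and Klf6 (0.30). Jun, the partner of Fos in AP-1, was lower (−0.37, adjusted p = 0.0157), a call lost without human APE1 replicate 2 or mouse Ape1 replicate 1. Fosb (−0.13), Fosl2 (0.15), Junb (0.15), Jund (−0.13), Atf3 (0.06) and Batf (−0.03) did not pass. Of 21 hypoxia factors and targets outside glycolysis, 5 were higher (23.8%), led by the collagen crosslinker Lox (1.25), and 1 was lower (4.76%), or 3 without human APE1 replicate 3. Hif1a differed by −0.18 (adjusted p = 0.0628).

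Antioxidant genes split. Of 36, 7 were higher (19.4%, against 12.2% of the brighter genes), among them Nqo1, the thioredoxin inhibitor Txnip and Nfe2l2, the gene of NRF2 (0.37). The number lower was 8 (22.2%, against 16.0%), or 5 without mouse Ape1 replicate 1 and in the authors' deposited table. Lower were the extracellular superoxide dismutase Sod3 (−1.31), the peroxiredoxins Prdx4 (−0.98) and Prdx3 (−0.68), Keap1, the inhibitor of NRF2 (−0.58), and Slc7a11 (−0.36). Also higher were Cat (0.41), Gsta4 (0.39), Gstm1 (0.34) and Txnrd1 (0.31). Hmox1 (0.05), Gclc (0.11), Gclm (0.16), Srxn1 (0.10), Gsr (0.01) and Txn1 (0.06) did not pass. The activity of NRF2 was not tested. Txnip read 9.83, 9.68 and 10.00 in the human APE1 line and 8.67, 8.49 and 8.59 in the mouse Ape1 line (1.26, adjusted p = 8.95e-05). Sod3 read 6.05, 6.29 and 6.30 against 7.53, 7.45 and 7.60, in the opposite direction.

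Base excision and single-strand break repair is the pathway in which Ape1 works. Of 26 measured genes, 3 were higher (11.5%, against 12.2% of the brighter genes) and 2 lower (7.69%, against 16.0%), with a median of 0.04 and no difference beyond 0.49 in size. The glycosylase Nthl1 read 7.81, 7.96 and 8.0 in the human APE1 line and 7.39, 7.54 and 7.40 in the mouse Ape1 line (0.48, adjusted p = 0.00373). The uracil glycosylase Ung was lower, at 7.49, 7.42 and 7.34 against 7.88, 8.05 and 7.79 (−0.49, adjusted p = 0.00616). Apex2, the relative of Ape1, read 7.63, 7.86 and 7.62 against 8.34, 8.11 and 8.02 (−0.45, adjusted p = 0.0241), a call lost without human APE1 replicate 1 or 3 or mouse Ape1 replicate 1 or 2. The flap endonuclease Fen1 (0.36) was not past the threshold without mouse Ape1 replicate 3, nor was Aplf (0.32) without any 1 of 7 arrays. The scaffold Xrcc1 (−0.02), the ligase Lig3 (0.04), the sensor Parp1 (0.09), the glycosylase Ogg1 (−0.02) and the polymerase Polb (−0.20, adjusted p = 0.0795) did not pass. Of 36 genes of other repair pathways, 8 were higher (22.2%) and 7 lower (19.4%), from Ercc5, a nucleotide excision nuclease (0.57), to Xrcc3, a recombination protein (−0.84). The count of those higher was 5 without human APE1 replicate 2 or 3, or mouse Ape1 replicate 1 or 2.

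Glycolysis is named in the series' question. Of 25 genes of glycolysis and glucose uptake, 3 were higher (12%, against 12.2% of the brighter genes) and 6 lower (24.0%, against 16.0%), with a median of 0.01. Slc2a1, the glucose transporter GLUT1, read 10.20, 10.28 and 10.28 in the human APE1 line and 10.79, 10.83 and 10.82 in the mouse Ape1 line (−0.56, SE 0.05, adjusted p = 0.000379). Pgk1, phosphoglycerate kinase, read 11.86, 11.85 and 11.84 against 12.48, 12.51 and 12.46 (−0.63, adjusted p = 0.000125). Both were steady among dishes, and vector control reached at most 10.15 for Slc2a1 and 12.01 for Pgk1. The regulators Pfkfb1 (−0.49) and Pfkfb3 (−0.40), the enolase Eno1 (−0.39) and the pyruvate kinase Pkm (−0.35) were lower, and Aldoc (0.43), Eno3 (0.40) and Pfkl (0.34) higher. Eno3 did not pass in the authors' deposited table. The number lower was 3 without human APE1 replicate 3 and 3 in the authors' deposited table, and the number higher was 6 after quantile normalization was run again. The calls of Pfkfb1, Pfkfb3 and Aldoc were each lost without at least 4 of the 9 arrays, taken 1 at a time. Hk2 (−0.22, adjusted p = 0.0879) and Ldha (−0.13, adjusted p = 0.21) did not pass.

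Of 18 genes of lactate transport and pyruvate dehydrogenase control, 3 were higher (16.7%) and 3 lower (16.7%), close to the 12.2% and 16.0% of the brighter genes. The kinases Pdk4 and Pdk1 (0.51) and Brp44 (0.39) were higher. The dehydrogenase subunits Dlat (−0.58) and Pdha1 (−0.34) and Emb, a partner of lactate transporters (−0.85), were lower. Pdhb (−0.11), Pdhx (−0.08), Dld (0.07), Pdk2 (0.34) and Pdk3 (−0.09) did not pass. The call of Emb was lost without human APE1 replicate 1 or 2 or mouse Ape1 replicate 1 or 2. Without mouse Ape1 replicate 1 or 2, 1 gene of that list was lower. Emb stood at 4.89, 5.00 and 5.50 in the human APE1 line and 6.09, 6.13 and 5.72 in the mouse Ape1 line, both far below vector control (9.44, 9.30 and 9.25). In the citric acid cycle 5 of 20 genes were higher and 6 lower, among them Idh3a (−0.64) and Dlst (−0.67). Both shares were above the 12.2% and 16.0% of the brighter genes. The share of the higher genes was not firm, since 2 or 3 were higher when any 1 of the 6 arrays was left out. Of 38 subunits of the respiratory chain and ATP synthase, 34 did not pass. Of 26 genes of cholesterol synthesis and its regulation by SREBP, 8 were higher (30.8%) and 2 lower (7.69%), with a median of 0.21. After quantile normalization was run again, 13 were higher. Hmgcs1, which starts the pathway, read 9.67, 9.69 and 9.83 against 8.91, 8.85 and 8.71 in the mouse Ape1 line (0.90, adjusted p = 0.000219). The isomerase Idi1 (0.66) and the regulator Srebf2 (0.56) were higher, and Sc5d, a late enzyme, lower (−0.57). Hmgcs1 and Idi1 lie on chromosome 13, where the median difference of the brighter genes was 0.12.

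Genes of the extracellular matrix changed in both directions. Of 26 collagens, 8 were lower (30.8%, against 16.0% of the brighter genes), also when any 1 array was left out, although the median was 0.02. Higher were Col5a2 (0.64) and Col3a1 (0.35), the second a call lost without any 1 of 8 arrays. Col1a2, a chain of the main fibrillar collagen, read 9.97, 9.89 and 9.91 in the human APE1 line and 11.19, 11.03 and 11.17 in the mouse Ape1 line (−1.20, adjusted p = 2.19e-05). Its partner chain Col1a1 was lower by 0.62, and Col12a1 (−1.93) and Col8a1 (−1.31) more so. Among 36 glycoproteins, proteoglycans and crosslinking enzymes, 12 were lower (33.3%, against 16.0% of the brighter genes) and 7 higher (19.4%, against 12.2%). Related proteins moved in opposite directions: the fibrillin Fbn1 was higher (8.18, 8.09 and 8.22 against 6.46, 6.58 and 6.46, 1.67) while Fbn2 was lower (5.19, 5.36 and 5.18 against 6.71, 6.70 and 6.70, −1.46). The thrombospondin Thbs2 was higher (1.35) and Thbs1 lower (−0.87). Spp1, osteopontin, read 7.60, 7.80 and 7.88 against 9.92, 10.01 and 9.88 (−2.18, 4.52-fold lower, adjusted p = 5.24e-06), and tenascin C (Tnc) was lower by 1.54. Ogn, a small leucine-rich proteoglycan (1.37), and the large proteoglycan Vcan (1.17) were higher.

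Of 30 matrix proteases and inhibitors, 10 were lower (33.3%, against 16.0% of the brighter genes) and 5 higher (16.7%, against 12.2%). Htra1, a secreted serine protease, read 6.23, 5.95 and 6.15 in the human APE1 line and 9.24, 8.98 and 9.0 in the mouse Ape1 line (−2.96, 7.79-fold lower, adjusted p = 8e-06). The aggrecan-cleaving Adamts5 (−1.55) and the fusion-related Adam12 (−1.04) were lower, and the inhibitors Serpinf1 (1.09) and Timp3 (0.97) higher. Among 26 contractile genes, desmin (Des, 0.96) and smooth muscle actin (Acta2, 0.58) were higher and filamin (Flna, −0.76) lower. Acta2 lay at 8.27, 7.98 and 8.30 in the human APE1 line and 7.80, 7.52 and 7.48 in the mouse Ape1 line, while vector control stood far above both at 11.95, 11.93 and 11.98.

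Adhesion and guidance molecules were counted next. Of 24 cadherins and protocadherins, 6 were lower (25%, against 16.0% of the brighter genes) with a median of 0.05, among them Cdh13 (−2.49) and N-cadherin, Cdh2, at 11.26, 11.26 and 11.29 against 12.50, 12.45 and 12.49 (−1.21, adjusted p = 8e-06), while Pcdh19 and Pcdh17 (1.64) were higher. Of 25 immunoglobulin-type molecules, 8 were lower (32.0%), Alcam and the junction protein Jam3 (−1.10) among them, and Vcam1 was higher. Of 28 integrins and laminins, 6 were lower (21.4%) and 3 higher (10.7%), with a median of 0.03. They ran from the integrin subunit Itga3 (−1.20) and its relative Itga6 (−0.63) to Itgb5 (0.42) and the laminin chains Lamc1 (0.30) and Lamb2 (0.70). Many members of these lists were dim. Brighter than the array median were 13 cadherins and protocadherins, 12 immunoglobulin-type molecules and 17 integrins and laminins. Of these, 6, 7 and 9 passed in either direction, against 28.2% of all brighter genes. Of 35 axon guidance ligands and receptors, 13 were lower (37.1%, against 16.0%) and 2 higher, with a median of −0.08, and 10 to 12 were lower when 1 array was left out. Without human APE1 replicate 1 or 3 or any 1 mouse Ape1 array, 1 was higher. Slit2, a repellent ligand, read 5.83, 5.73 and 5.85 in the human APE1 line and 8.59, 8.48 and 8.47 in the mouse Ape1 line (−2.71, 6.55-fold lower, adjusted p = 5.65e-07), and vector control was the highest at 9.69, 9.70 and 9.72. The semaphorin Sema5a (−1.73), the receptor Epha7 (−1.39) and its ligand type Efna5 (−1.02) were lower too.

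**Figure D4:**
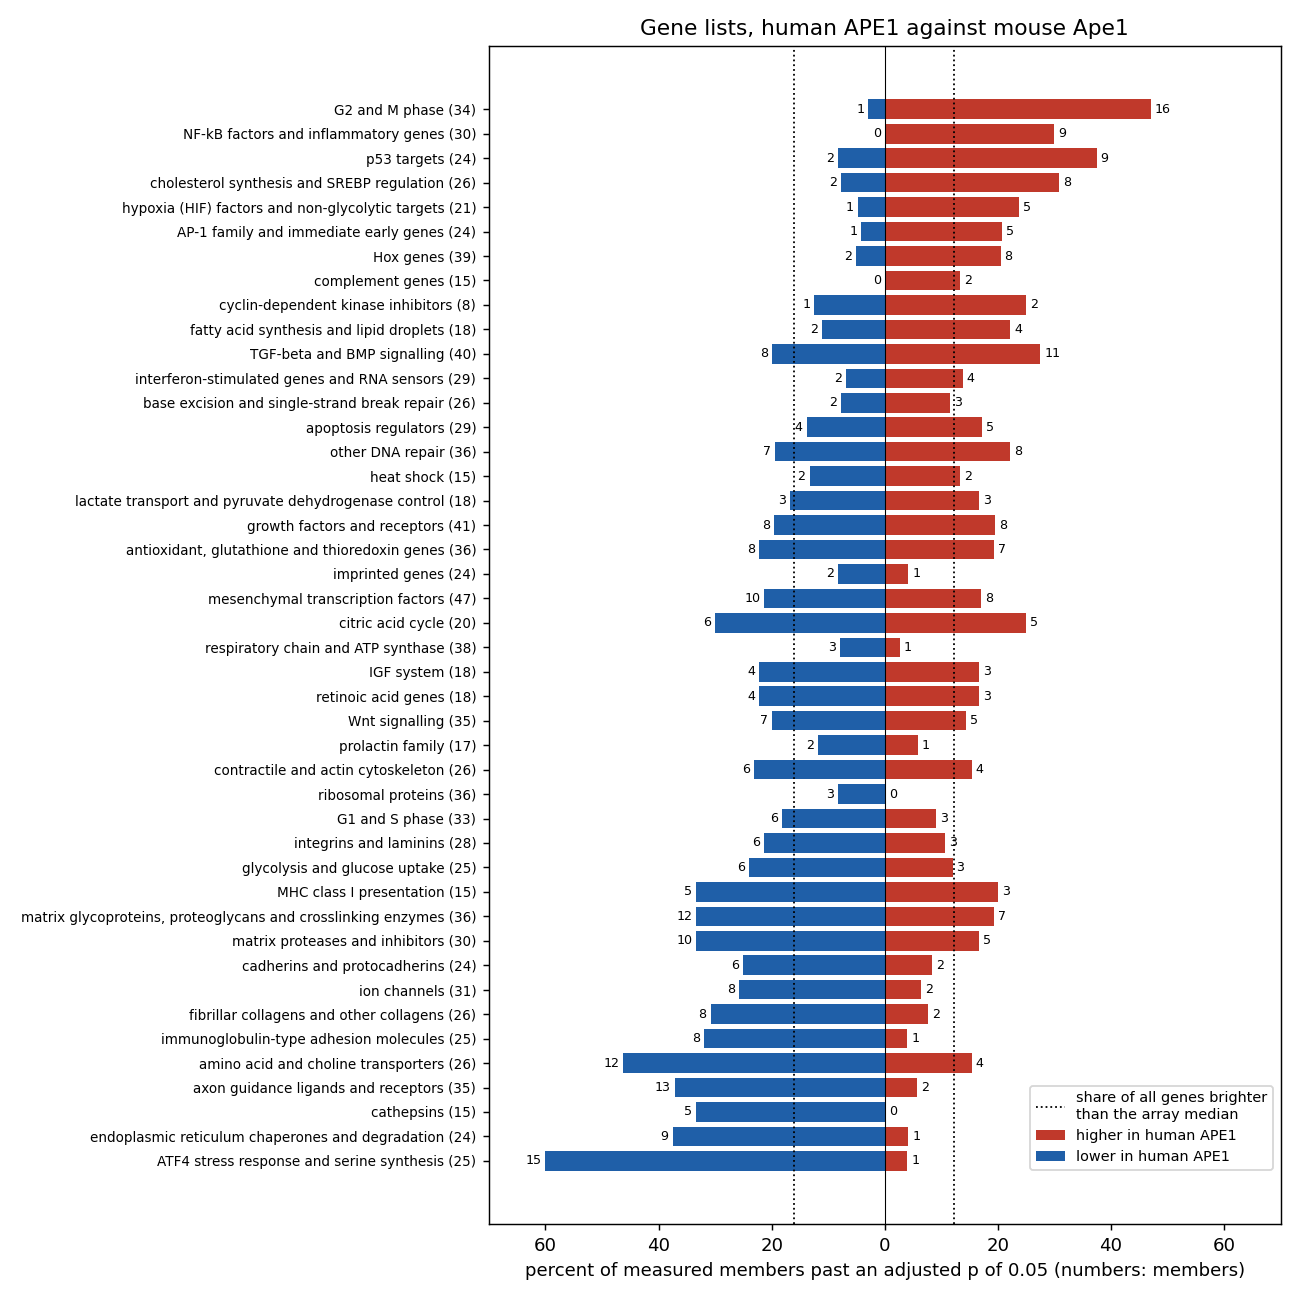
For each gene list, with its number of measured genes in brackets, the percent past an adjusted p of 0.05 that was lower (blue, to the left) or higher (red, to the right) in the human APE1 line, with the number of genes at the bar's end. Dotted lines mark the shares of all 13463 genes brighter than the array median (16.0% lower, 12.2% higher), while the bars count dim list members too. The G2 and M phase list has the longest red bar (16 of 34) and the ATF4 list the longest blue bar (15 of 25).

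Secreted signals and their read-outs moved in both directions. In the TGF-beta and BMP list 11 of 40 were higher, a larger share than the 12.2% of the brighter genes. The number lower was 8, close to the 16.0% of the brighter genes. It was 5 without mouse Ape1 replicate 2 and in the authors' deposited table. Higher were the ligand Bmp4 (9.05, 8.98 and 8.98 against 7.98, 7.97 and 7.97 in the mouse Ape1 line, 1.03), the mediator Smad9 (1.49), the antagonist Grem1 (0.92) and the targets Id2 (10.35, 10.30 and 10.40 against 8.54, 8.77 and 8.62, 1.71), Id1 (0.56), Id4 (0.46) and Id3 (0.37). The activin subunits Inhbb (−1.10) and Inhba (−0.89) and the BMP antagonist Nog (−0.46) were lower. The ligands Bmp2 (0.02), Bmp6 (−0.02) and Bmp7 (0.03), the receptors Bmpr1a (0.12), Bmpr1b (−0.23) and Bmpr2 (0.20) and the mediator Smad1 (−0.06) did not pass. Among 41 growth factors and receptors, 8 were higher (19.5%, against 12.2% of the brighter genes) and 8 lower (19.5%, against 16.0%). Beside Fgf7, Ptn and Ereg, neuregulin (Nrg1, 1.23) was higher, and the platelet-derived factors Pdgfc (−1.38) and Pdgfd (−1.13) and the Fgf7 relative Fgf10 (−0.80) were lower. In the Wnt list 5 of 35 were higher and 7 lower, with a median of 0.05. These shares were close to the 12.2% and 16.0% of the brighter genes, so the list as a whole did not stand out. When 1 array was left out, 3 to 5 were higher and 3 to 6 lower. The ligand Wnt4 (0.86, adjusted p = 0.0475) and Tcf7 (0.70) were higher, and the antagonist Dkk2 (−1.78) and the ligand Wnt5a (−1.18) lower. The IGF-binding Igfbp7 was lower by 2.07.

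Regional and lineage factors differed as well. Of 39 Hox genes, which mark position along the body, 8 were higher (20.5%, against 12.2% of the brighter genes), all of the A and C clusters (Hoxa4 0.94, Hoxc8 0.74). Hoxd8 (−0.58) and Hoxb9 (−0.49) were lower. Prrx1, a factor of limb and facial mesenchyme, read 9.88, 9.73 and 9.71 in the human APE1 line and 8.09, 7.97 and 7.96 in the mouse Ape1 line (1.76, adjusted p = 5.24e-06), and its relative Prrx2 was higher (1.06). The craniofacial factor Alx1 (−1.27) and Tbx18 (−1.24) were lower. Ulbp1, a ligand of the natural killer receptor NKG2D, read 5.83, 5.46 and 5.64 against 8.58, 8.52 and 8.54 (−2.90, 7.48-fold lower, adjusted p = 2.18e-06), and the RNA sensor Ifih1 was lower by 1.34. Among markers of other lineages, 3 of 8 neural ones were lower in the human APE1 line (37.5%, against 16.0% of the brighter genes), Tubb3 (−1.25), Nes (−0.49) and Mtap2 (−0.36), and 0 higher. Of the markers of cartilage and bone, Sox9 (−0.72) and Alpl (−0.36) were lower, with 1 of the 2 passing without human APE1 replicate 1 or 3 or mouse Ape1 replicate 1 or 3. The bone factor Runx2 (0.26) was higher, a call lost without any 1 of 8 arrays. Of the markers of fat, Lpl was lower (−1.01) and Pparg higher (0.41, lost without any 1 of 7 arrays). Their part in the other differences was not tested.

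Whole chromosomes differed by small amounts. Over the genes brighter than the array median, the median difference was 0.22 on chromosome 10, where 261 of 664 genes were higher and 28 lower. It was 0.12 on chromosome 13 (140 higher and 33 lower of 482), 0.12 on chromosome 15 (114 and 26 of 544), 0.11 on chromosome 1 (157 and 56 of 728) and 0.11 on chromosome 19 (101 and 43 of 446). It was −0.29 on X (9 higher and 199 lower of 425), −0.24 on chromosome 12 (29 and 226 of 480), −0.18 on chromosome 9 (46 and 297 of 719), −0.15 on chromosome 18 (15 and 101 of 320) and −0.12 on chromosome 5 (36 and 248 of 851). On each of these the 3 human APE1 arrays lay wholly on one side of the 3 mouse Ape1 arrays. The same held, with smaller medians, on chromosomes 6 (0.06), 11 (0.09), 4 (−0.01), 8 (−0.06) and 16 (−0.03). When dim genes were included the medians shrank to 0.13 for chromosome 10 and to 0.08 or 0.09 for chromosomes 1, 13, 15 and 19. For X and chromosomes 5, 9, 12 and 18 they shrank to between −0.04 and −0.01. Of 7 genes on Y brighter than the array median, 4 were lower in the human APE1 line and 0 higher, while the median over all 40 genes on Y was −0.01. Lower were Ddx3y at 9.07 against 10.63 (−1.57), Kdm5d at 7.61 against 9.09 (−1.48), Uty at 8.06 against 9.31 (−1.25) and Eif2s3y at 9.32 against 10.30 (−0.98). Xist, the RNA of the silenced X, was near background in both lines (3.62 and 3.57). Pgk1, Apex2, Pfkfb1 and Flna lie on X, and Dlat, Idh3a and Keap1 on chromosome 9. What part the shift of a chromosome has in a gene's difference was not tested. With chromosome medians subtracted on each array, these 7 genes kept their direction and their call. Those medians were taken over all genes, dim ones included, and differed by −0.02 on X and −0.01 on chromosome 9. The step thus removed little of the shift of the brighter genes and cannot answer this.

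**Figure D5:**
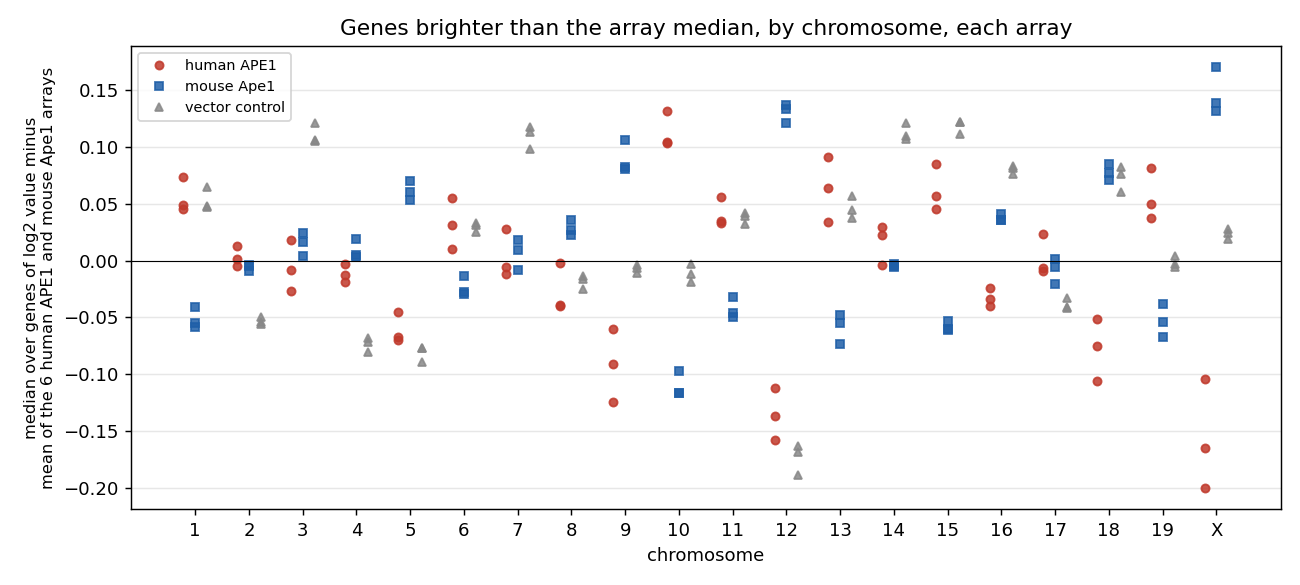
For each chromosome, the median over its genes brighter than the array median of the log2 value minus the gene's mean over the 6 human APE1 and mouse Ape1 arrays, 1 symbol per array (human APE1 red circles, mouse Ape1 blue squares, vector control grey triangles). Circles lie above squares on chromosomes 1, 10, 13, 15 and 19 and, by less, on 6 and 11. Circles lie below squares on chromosomes 5, 9, 12, 18 and X and, by less, on 4, 8 and 16. The triangles take other orders.

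At one locus a gene was lower together with some of the small RNAs inside it. Sfmbt2, a Polycomb-group gene of chromosome 2 that is imprinted in the mouse placenta, was chosen after its values were seen. It read 4.78, 5.04 and 5.23 in the human APE1 line, 7.17, 6.94 and 6.92 in the mouse Ape1 line and 6.18, 6.20 and 5.97 in vector control (−2.0, 3.99-fold lower, adjusted p = 5.87e-05). RefSeq places 71 microRNA genes inside it, of which 25 are on the arrays, on 67 transcript clusters with 36 distinct sets of values. Of these 36, 11 were lower and 0 higher, with a median of −0.28. Counted by cluster, 21 of the 67 were lower, against 11 of 521 microRNA clusters outside Sfmbt2, and over all 588 clusters, the 67 included, 5.44% were lower and 1.02% higher. The 21 came from 5 of the 25 microRNA symbols, with 9 from Mir669k and 6 from Mir466b-2. The brightest symbols, Mir466h (−0.05) and Mir669a-3 (−0.02), did not pass. Mir669k, on 9 clusters, differed by −2.74 to −1.74, and its brightest cluster read 4.62, 4.54 and 3.91 against 6.91, 6.80 and 6.99 in the mouse Ape1 line. Mir669j (−1.91), Mir669i (−1.34) and Mir669g (−1.18) were lower as well. These precursors are near-identical copies with dim probes, their values may be those of the host transcript, and mature microRNAs were not measured.

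Outside Sfmbt2, 6 microRNA symbols were higher and 11 lower. Of those with a RefSeq entry, 4 well known ones are shown, with the seed (bases 2 to 8) that pairs with targets in capitals.
mmu-miR-19a-3p: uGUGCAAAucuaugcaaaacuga
mmu-miR-222-3p: aGCUACAUcuggcuacugggucu
mmu-let-7e-5p: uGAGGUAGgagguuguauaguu
mmu-miR-155-5p: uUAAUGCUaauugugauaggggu
No seed was shared among them. The precursor of miR-19a (Mir19a), of a cluster known for driving lymphoma, was higher, at 4.60, 4.65 and 4.37 against 3.97, 4.08 and 3.88 (0.56, adjusted p = 0.00458), and its size is uncertain, since the mouse Ape1 mean lay below the 25th percentile. Mirlet7e, of the let-7 family, was lower, at 5.99, 6.25 and 6.28 against 6.72, 6.63 and 6.98 (−0.60, adjusted p = 0.0304). Mir222, an X-linked microRNA that targets p27 (−0.60, adjusted p = 0.0498), and Mir155, an inflammatory microRNA (−0.40, adjusted p = 0.0449), were lower and close to the threshold, with Mir222 below the 25th percentile in the human APE1 line and its size uncertain.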

How the data were processed

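RNA of 3 dishes per cell line was measured on 9 Affymetrix arrays. The values are log2 intensities that the authors summarised by RMA over core exons, per the labels; the deposited table of fold ratios and p-values carries the authors' own comparisons. The submitters' processing notes name Partek, with no version. Array design, genome build and background settings: not given in the sources used here. RMA's quantile step, which gives arrays like distributions, can hide shifts shared by most genes. Arrays hold no read depth, and their number limits the precision.

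Of 41345 transcript clusters, 27037 had a symbol in the authors' deposited table, giving 24647 genes by the brightest cluster of each symbol; 1646 symbols lay on several clusters. A linear model over all 9 arrays (limma 3.58.1, R 4.3.3; matplotlib 3.10.9, scipy 1.17.1, pandas 2.3.3, numpy 2.4.6, Python 3.11.15) gave human APE1 minus mouse Ape1, with Benjamini-Hochberg adjustment over all clusters and a threshold of 0.05. Across 41345 clusters the authors' log2 ratios correlated with those of the arrays at r = 0.972. An exact permutation test of 3 against 3 arrays cannot give a p below 0.1 and was not used. The script was tested on simulated data.

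Named were the 15 largest differences per direction that passed, did not overlap and whose brighter line exceeded the array median (predicted genes, pseudogenes, microRNAs and olfactory and vomeronasal receptors left out), up to 4 per gene list and direction, and a fixed set of 21 genes. Other genes, among them Asns, Cdk1, Vmn1r188, Sfmbt2, the further list members and those on Y, were named after their values were seen. The members and all 52 lists were chosen with earlier results of these data known. Alternatives were the 6 arrays alone, a replicate block, other scalings, a filter on dim clusters, a variance trend, the mean over clusters, the authors' table and each array left out. The 0 sample columns left unused leave no array out. Promoters and microRNAs are RefSeq's (GRCm38.p6). The gene for Ape1 is not analysed here, and some list members are counted but not reported here by name.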

Additional observations from a re-analysis of the deposited data

Results flagged for a closer look

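In 13 of the 30 genes with the largest differences, the human APE1 line and the mouse Ape1 line moved in opposite directions from vector control. Both comparisons use the same vector control arrays, so they are not independent. All 30 genes were chosen for a large human APE1 minus mouse Ape1 difference that had passed limma, so its call in these 13 is fixed by that choice, which also favours opposite moves. The values are a description. Higher in the human APE1 line and lower in the mouse Ape1 line than in vector control were Ablim1 (0.78 and −1.27, difference 2.05), Pdk4 (1.05 and −0.91, difference 1.96), Pdzrn3 (0.58 and −1.36, difference 1.94), Ralgps2 (0.40 and −1.49, difference 1.90) and Plekhg1 (1.12 and −0.75, difference 1.87).

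Lower in the human APE1 line and higher in the mouse Ape1 line than in vector control were Asap2 (−2.78 and 0.97, difference −3.76), Ptprq (−0.41 and 3.28, difference −3.69), Tll1 (−0.90 and 2.62, difference −3.51) and Ptprn (−2.24 and 1.07, difference −3.31). Ttc9 (−1.71 and 1.59, difference −3.30), Alcam (−1.96 and 1.23, difference −3.19), Prkd1 (−2.56 and 0.57, difference −3.14) and Ccnd2 (−2.26 and 0.70, difference −2.96) did the same. With 3 arrays per line, single arrays were not tested as outliers.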

How the results depend on the processing

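All 30 largest differences kept their sign and call in every alternative that could test them, and Prl ranged from −7.66 to −7.19. Of 306 named genes, none turned direction, and between 270 and 298 kept their call when 1 array was left out. The count of genes that differed was 4081, and ran from 2986 without mouse Ape1 replicate 3 to 3859 without vector control replicate 1, and up to 4982 with means over a symbol's clusters. Glycolysis members lower fell to 3 in the authors' deposited table, against 6, and ranged from 3 to 6 when 1 array was left out. Cholesterol synthesis members higher were 13 after quantile normalization was run again, against 8. With array medians subtracted the median of chromosome 5 was −0.10. Over all genes with a known chromosome, dim ones included, the medians were −0.03 on chromosome 5, −0.01 on 9, 0.13 on 10, −0.03 on 12, −0.04 on 18 and −0.02 on X. The causes were not tested.

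Replicate numbers did not pair the samples: deviations of same-numbered human APE1 and mouse Ape1 arrays correlated at 0.1044, −0.05476 and 0.002564. With the replicate number as a block, 3281 genes differed (1355 higher, 1926 lower), and 285 named genes kept their call. Counts over all genes of the vector control's place between the lines were not run, since both comparisons share its arrays. Dim genes limit the rest.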

Other observations

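Further gene lists were counted against the 12.2% higher and 16.0% lower of the brighter genes. Of 31 ion channels, 8 were lower in the human APE1 line (25.8%), or 5 without human APE1 replicate 1. Of 15 cathepsins, 5 were lower (33.3%) and 0 higher, led by Ctsc, which activates granule proteases (−1.13), and Lgmn, legumain (−0.84). The count was 3 without human APE1 replicate 1 or 2 or any 1 mouse Ape1 array. Brighter than the array median were 18 of the ion channels and 10 of the cathepsins. Of these, 9 and 5 passed in either direction, against 28.2% of all brighter genes. Among retinoic acid genes, Dhrs3 (0.85), which reduces retinaldehyde, was higher, opposite to Aldh1a1 (−3.95) and Aldh1a7 (−0.67). Ribosomal proteins had fewer calls than the brighter genes: 3 of 36 were lower (8.33%) and 0 higher, and 1 was lower without human APE1 replicate 1 or 2 or mouse Ape1 replicate 3.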
